A study of Homo sapiens with 6 samples.

Results

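Aminoacyl-tRNA synthetases, the enzymes that attach amino acids to their tRNAs, were examined together with genes of amino acid supply that the transcription factor ATF4 is known to control. The list held 48 genes. A gene counted as measured where a probe set of the array carried its symbol alone, and the probe set with the highest mean signal represented it. This gave 45 of the 48 genes, out of 19775 genes measured in all. MARS1 and QARS1 were read only by probe sets that carry a second symbol, and GPT2 was not analysed here.

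The cells were OVCA433, an established line of high-grade serous ovarian cancer, grown in RPMI1640 with 10% fetal bovine serum. Of the 6 arrays (Affymetrix U133 Plus 2.0), 3 came from control dishes, whose medium was renewed without versican 24 hours after seeding. The other 3 came from dishes given medium with exogenous versican, a matrix proteoglycan that carries chondroitin sulfate chains. RNA was taken 48 hours after treatment. The protocol also calls the harvested cells transfected, a word that the titles, descriptions and series text do not use, and its meaning here is unknown. The results therefore concern 1 cell line, 1 time point and an unstated dose.

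Cells read a shortage of amino acids, and other stresses, through kinases that phosphorylate the translation factor eIF2. Most translation then slows, while the ATF4 messenger is translated more, because short upstream reading frames in it are bypassed. ATF4 pairs with C/EBP proteins on a DNA element called CARE and raises genes for amino acid uptake, amino acid synthesis and tRNA charging. ATF4 is therefore controlled largely at translation, and an array measures its transcript only. Tumour cells are known to use this programme to keep up protein synthesis.

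Values are MAS5 signals on a linear scale. Fold changes are on the scale of log2(signal + 16) and understate changes of dim genes. The 9887 genes in the upper 50% by mean log2 value were tested, and 43 of the 45 measured members were among them. SLC1A4 and SLC6A9 lay below. "Called" means an adjusted p below 0.05 in limma, adjusted over all 9887 genes, and "rose" and "fell" are used for called genes only. NUPR1 was the only tested member with a group mean under 201, the lowest mean signal of a tested gene, so it passed through its control arrays.

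On the tested genes, arrays correlated at 0.993 to 0.995 within a group and at 0.969 to 0.972 between groups. The mean signal of the 18S ribosomal RNA control probe sets was 5259 to 5556 on control arrays and 6069 to 6748 on versican arrays. Its part in the members' changes was not tested. The 3'/5' ratio of ACTB overlapped between groups, at 1.22 to 1.29 and 1.24 to 1.27. Of 10 epithelial and ovarian markers 9 passed the filter, with a summed signal of 114750 to 132950 in control and 118601 to 120855 in versican arrays. Single markers moved within that sum: PAX8 rose (log2 0.90), and MUC1 (-1.36) and KRT19 (-0.21) fell. WT1, which did not pass, had a mean signal of 18.4. Of 10 fibroblast markers only COL1A1 passed, and it fell. Their sum was 5281 to 5376 in control and 2758 to 3280 in versican arrays, and the other 9 had mean signals of 84.1 or less. No measured leukocyte marker (8 of 10 listed) or endothelial marker (7 of 7) passed. Sums were 245 to 278 and 215 to 278 for leukocyte markers and 280 to 433 and 273 to 392 for endothelial markers, with ranges that overlapped. In bulk RNA, fewer cells of a type and less RNA per cell cannot be told apart.

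Members fell more often than they rose. Of the 43 tested, 19 fell (44.2%), 8 rose (18.6%) and 16 were not called. Among all tested genes 20.6% were called lower, 21% higher and 41.6% in either direction, against 62.8% of members. The median log2 fold change was -0.11 over the members and 0.007 over all tested genes. Signals of the groups did not overlap for 31 members (72.1%) and for 52.2% of all tested genes. Of the 43 tested members, 7 changed by at least 1.5-fold, all of them called, and 1 by at least 2-fold. That 1 was NUPR1, which passed the filter only through its control arrays. Of the 9887 tested genes, 878 changed by at least 1.5-fold. The median size of change was 0.41 on the log2 scale over called members and 0.37 over all called genes. The count of members that fell was 12 without versican replicate 1 and 11 when each array was centred on its median. In these runs the median log2 fold change was -0.133 and -0.088 over members and 0.009 and 0.032 over all tested genes. The share of all tested genes called lower in them is not set beside these counts.

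Of 17 tested synthetases 5 fell and 3 rose, and the share called, 47.1%, was near the 41.6% of all tested genes. Of the 26 other tested members, 14 fell and 5 rose, where 20.6% and 21% of all tested genes did. The difference between synthetases and other members was not tested. The calls of 13 members held under every alternative run that tested them, 10 lower and 3 higher. The 10 were AARS1, ASNS, ALDH18A1, PYCR1, CBS, SLC7A5, SLC1A5, CHAC1, NUPR1 and VLDLR, and the 3 were HARS1, GOT1 and ATF5. Of these 13, only AARS1, ALDH18A1, CBS and HARS1 were tested in all 17 alternative runs. NUPR1 was tested in the fewest, 14, and passed the main filter only through its control arrays.

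**Figure D1:**
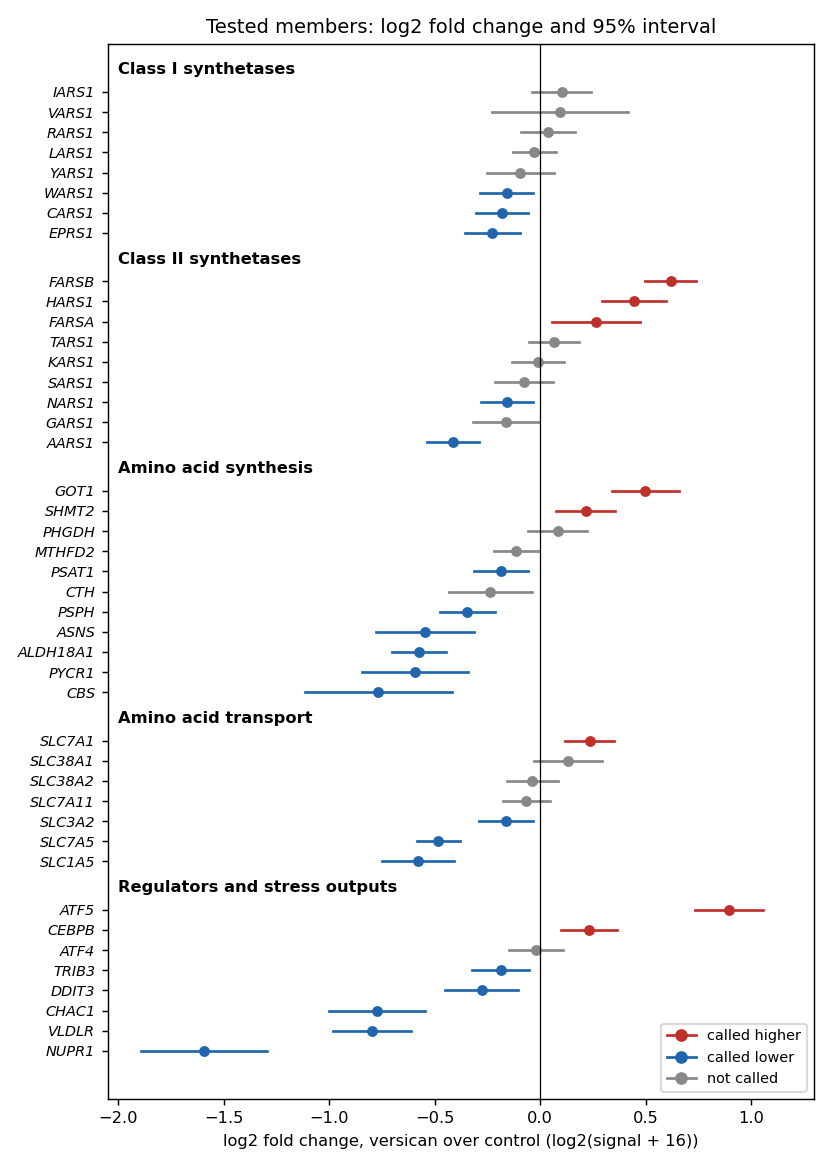
Log2 fold change of versican over control arrays (x axis, log2(signal + 16)) for the 43 tested members, grouped by role, with points for the limma estimate and bars for its 95% interval. Blue marks the 19 called lower, red the 8 called higher and grey the 16 not called, and NUPR1 lies farthest from 0 at -1.59.

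**Figure D2:**
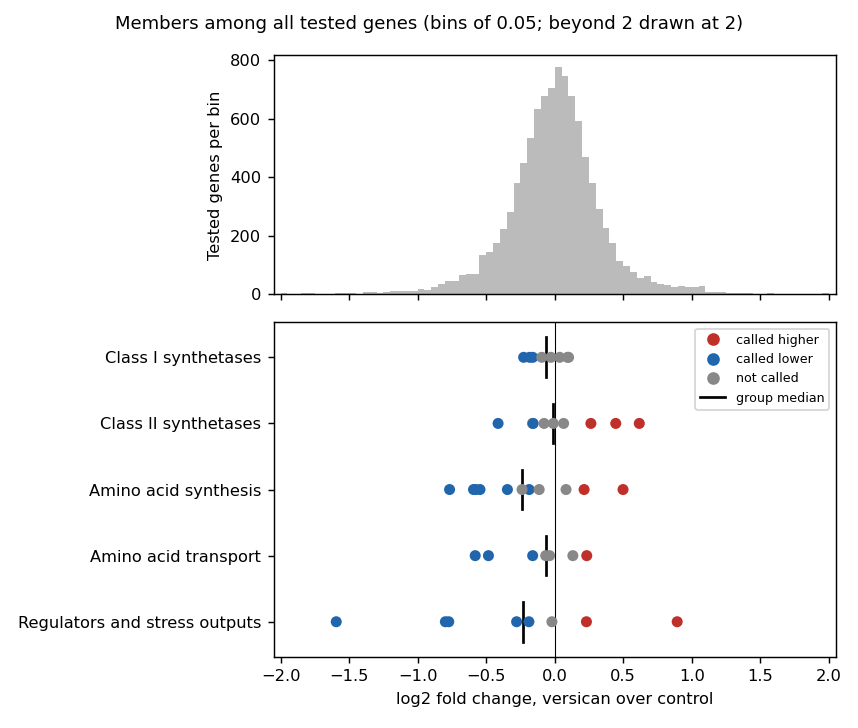
Upper panel, number of tested genes per bin of log2 fold change, versican over control (9887 genes). Lower panel, the 43 tested members on the same axis by role, with a black bar at each group's median. The medians of amino acid synthesis (-0.24) and of regulators and stress outputs (-0.23) lie left of 0, and those of both synthetase classes (-0.06 and -0.01) lie near it.

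The start regions of the members were searched for the letters TGATGNAA, the core of CARE elements, on both strands of RefSeq windows of 300 bases (250 before and 50 after an annotated start, GRCh38.p14). Of 39 members with a window, 15 held the motif (38.5%), against 2.6% of 8265 tested genes and 4.46% of all 27305 genes with a window. Counted by window, these were 15 of 60 (25%) and 3.62% of 35116. Many members were listed because they are known ATF4 targets, so this share describes the list and is not independent support for it. A match is a run of letters, not a measured binding site.

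Stretches around the motif are shown for 10 members to let the flanks be compared. Each has 30 bases, 5′ to 3′, turned so that the motif, in capitals, reads TGATGNAA.
AARS1: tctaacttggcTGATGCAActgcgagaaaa
CARS1: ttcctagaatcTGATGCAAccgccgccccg
GARS1: ggctcggagcaTGATGAAAtcgccgcgtaa
IARS1: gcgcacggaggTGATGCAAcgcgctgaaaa
NARS1: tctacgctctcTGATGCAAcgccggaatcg
TARS1: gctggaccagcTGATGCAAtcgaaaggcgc
ASNS: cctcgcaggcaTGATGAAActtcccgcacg
GOT1: gctgccgagaaTGATGCAAccaatgcaatt
SLC1A5: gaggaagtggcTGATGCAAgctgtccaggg
CHAC1: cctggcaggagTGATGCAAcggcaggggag

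In the same order these lie at chr16:70289675-70289704 (plus strand), chr11:3057407-3057436 (plus), chr7:30594834-30594863 (minus), chr9:92293692-92293721 (plus), chr18:57621804-57621833 (minus), chr5:33440956-33440985 (minus), chr7:97872458-97872487 (minus), chr10:99430804-99430833 (plus), chr19:46784893-46784922 (minus) and chr15:40953251-40953280 (minus). The motif began close to the start in CARS1 (position -2), TARS1 (2), IARS1 (-13) and NARS1 (14), and far upstream in AARS1 (-187), GOT1 (-198) and CHAC1 (-209). Here 0 is the annotated start whose window held the motif. Positions are those of the match's most upstream base on the gene's strand, whichever strand the motif reads on. Some genes have several annotated starts: CARS1, GARS1, TARS1, ASNS and SLC1A5 each also had a window without the motif.

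The wider upstream sequence is shown for 2 members that fell, with the motif near the start in ASNS and far from it in CHAC1. Each run holds the 250 bases before the start on the gene's strand, chr7:97872409-97872658 (minus) for ASNS and chr15:40953221-40953470 (plus) for CHAC1, where the motif stands on the opposite strand.
ASNS: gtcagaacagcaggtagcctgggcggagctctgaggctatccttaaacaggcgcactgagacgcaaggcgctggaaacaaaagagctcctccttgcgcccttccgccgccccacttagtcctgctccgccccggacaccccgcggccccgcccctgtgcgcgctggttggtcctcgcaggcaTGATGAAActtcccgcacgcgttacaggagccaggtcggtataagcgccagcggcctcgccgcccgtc
CHAC1: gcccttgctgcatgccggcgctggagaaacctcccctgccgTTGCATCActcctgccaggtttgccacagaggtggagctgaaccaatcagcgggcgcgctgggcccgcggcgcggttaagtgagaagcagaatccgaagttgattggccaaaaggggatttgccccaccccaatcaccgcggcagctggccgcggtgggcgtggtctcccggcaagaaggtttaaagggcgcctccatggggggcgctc

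Of the 13 tested members with the motif, 7 fell, 2 rose and 4 were not called (median log2 fold change -0.16). Of the 22 tested members with a window but no motif, 9 fell, 5 rose and 8 were not called (median -0.10). Among all tested genes with a window 20.1% fell and 21.4% rose.

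**Figure D3:**
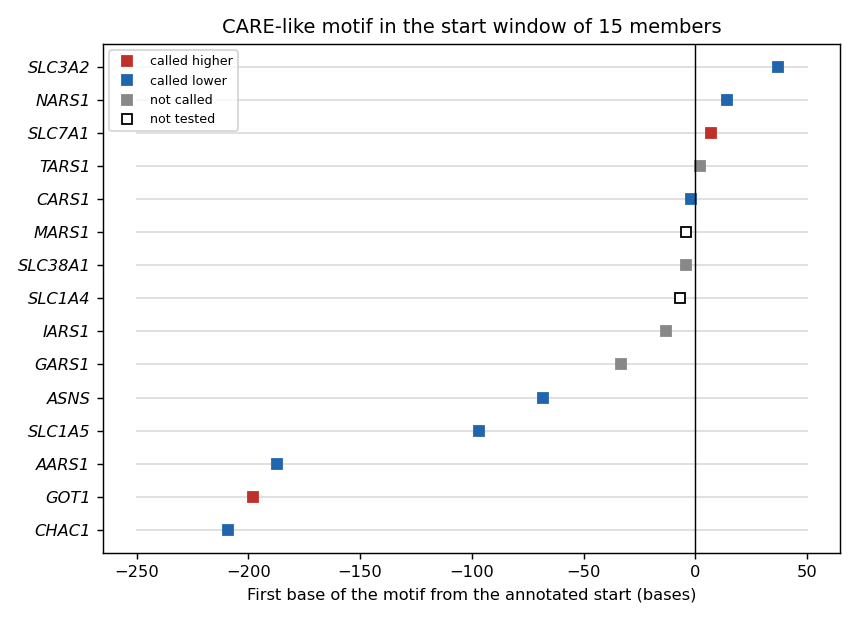
Position of TGATGNAA, either strand, from the annotated start (x axis, bases) in the 15 members whose window holds it. The position is that of the match's most upstream base on the gene's strand. Grey lines mark the window, from 250 bases before the start to 50 after. Colours give the call (blue lower, red higher, grey not called, open not tested). Of the 2 called higher, GOT1 has the motif at -198 and SLC7A1 at 7.

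Among the regulators, the ATF4 transcript itself was not called. Its signals were 13547, 13317 and 12635 on control and 12831, 12387 and 13753 on versican arrays. The groups overlapped, and the log2 fold change was -0.02 (SE 0.06, adjusted p = 0.80), with a 95% interval from -0.15 to 0.11. Levels of ATF4 protein were not measured.

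ATF5, a relative of ATF4 that is likewise controlled at translation and supports survival under stress, rose more than any other member. Its signals were 538, 492 and 505 on control and 983, 963 and 945 on versican arrays, so every versican array lay above every control array. The change was 1.86-fold (log2 0.89, SE 0.07, adjusted p = 8.0e-06), and a second probe set gave log2 0.96. CEBPB, a C/EBP factor that can dimerize with ATF4, rose 1.17-fold (log2 0.23, adjusted p = 0.011). That call was lost after median centring (adjusted p = 0.077).

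The stress outputs fell by very different amounts. NUPR1, a small chromatin-associated stress protein, had signals of 409, 342 and 340 on control and 112, 119 and 98.0 on versican arrays. The groups were far apart, and the signal was 3.02-fold lower (log2 -1.59, SE 0.13, adjusted p = 9.8e-06). Its versican mean lay under the lowest mean of a tested gene, and NUPR1 was also called when no filter on low values was used. VLDLR, a lipoprotein and reelin receptor, had signals of 693, 639 and 639 on control and 366, 369 and 378 on versican arrays. It was 1.74-fold lower (log2 -0.80, SE 0.08, adjusted p = 3.9e-05). CHAC1, an enzyme that degrades glutathione, went from 533, 489 and 467 to 301, 290 and 260, 1.71-fold lower (log2 -0.77, SE 0.10, adjusted p = 0.00021). The groups did not overlap for VLDLR or CHAC1.

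The pair of genes most used as readouts of prolonged ATF4 activity changed little. DDIT3, the pro-apoptotic factor CHOP, had signals of 963, 1054 and 991 on control and 817, 897 and 762 on versican arrays, without overlap, 1.21-fold lower (log2 -0.28, SE 0.08, adjusted p = 0.017). TRIB3, a pseudokinase that feeds back on ATF4 and CHOP, had 3486, 3783 and 4013 against 3165, 3327 and 3394, also without overlap, 1.14-fold lower (log2 -0.19, SE 0.06, adjusted p = 0.030). Neither call was stable. DDIT3 was not called without control replicate 2, versican replicate 1 or versican replicate 3 (adjusted p 0.050 to 0.066) or after median centring (0.056). TRIB3 was not called without control replicate 2 or 3 or versican replicate 1 or 2 (0.054 to 0.11), nor after median centring (0.20), with no filter (0.054), with no intensity trend (0.065) or with the mean of probe sets (0.060).

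**Figure D4:**
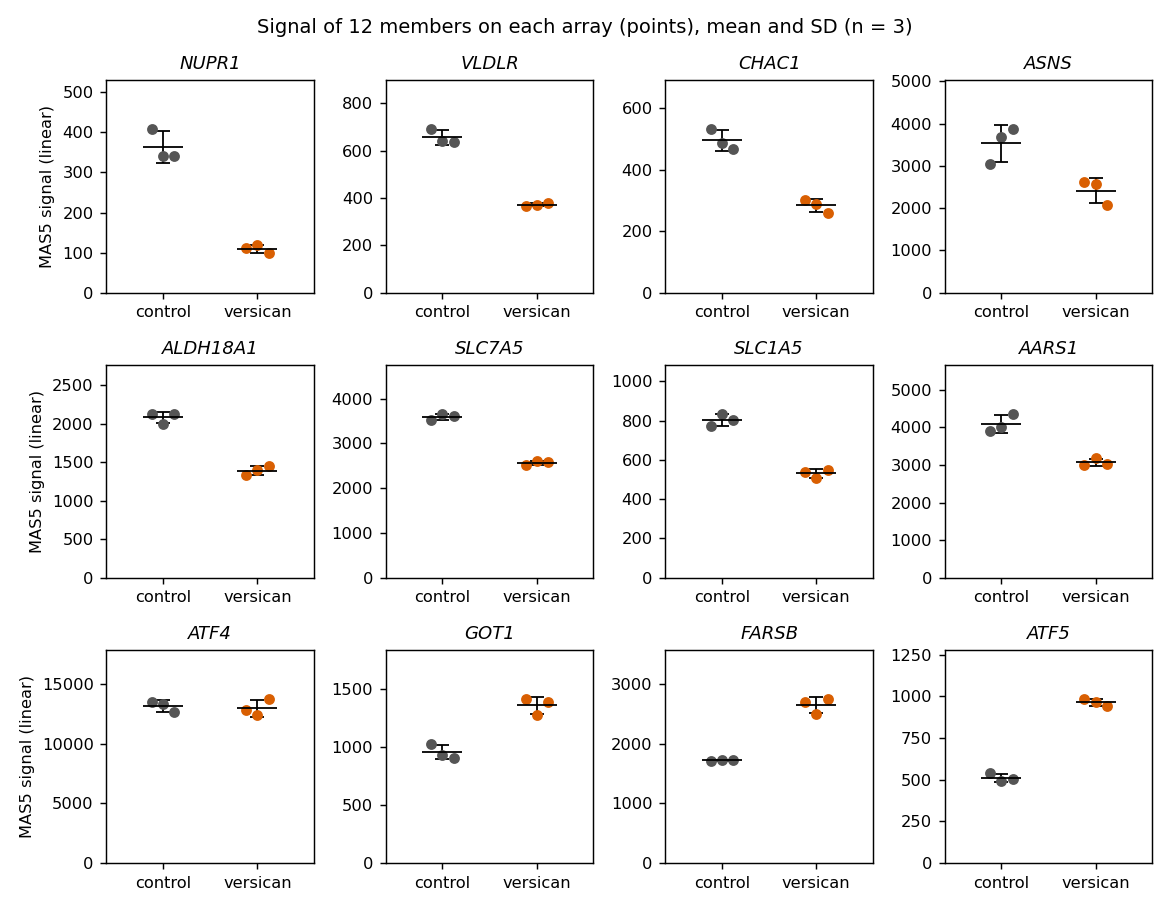
MAS5 signal (y axis, linear, from 0) of 12 members on the 3 control arrays (grey) and the 3 versican arrays (orange), with a bar at each group's mean and whiskers of 1 SD (n = 3). The groups are apart in 11 panels and overlap for ATF4, with signals of 12635 to 13547 in control and 12387 to 13753 in versican arrays.

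Of 11 tested genes of amino acid synthesis, 6 fell (54.5%, against 20.6% of all tested genes) and 2 rose (18.2%, against 21%), and the median log2 fold change was -0.24. Transcripts of proline synthesis fell at both steps measured. ALDH18A1, which makes the first committed intermediate of proline from glutamate, had signals of 2124, 1995 and 2124 on control and 1330, 1399 and 1444 on versican arrays. The groups did not overlap, and the change was 1.49-fold (log2 -0.58, SE 0.06, adjusted p = 3.1e-05). Its second probe set gave log2 -0.44 and was also called. PYCR1, which completes proline in mitochondria, was 1.51-fold lower (log2 -0.59, SE 0.11, adjusted p = 0.0022). Its mean signal went from 812 ± 110 to 532 ± 59 (SD, n = 3 each).

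ASNS, which makes asparagine and is a classical ATF4 target, had signals of 3048, 3678 and 3877 on control and 2613, 2563 and 2076 on versican arrays. Every versican array lay below every control array, though the spread within groups was wide, and the change was 1.46-fold (log2 -0.55, SE 0.10, adjusted p = 0.0022).

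The serine pathway did not move as a block. PHGDH, its first enzyme, had overlapping groups and was not called (log2 0.08, adjusted p = 0.32). PSAT1, the second, was 1.14-fold lower (log2 -0.19, adjusted p = 0.024), and its second probe set fell too (log2 -0.27). PSAT1 was not called without control replicate 3 or versican replicate 1 or 2 (adjusted p 0.061 to 0.099), after median centring (0.21) or with no intensity trend (0.057). PSPH, the last step, had signals of 1945, 1778 and 1931 on control and 1446, 1474 and 1519 on versican arrays, without overlap, 1.27-fold lower (log2 -0.35, SE 0.06, adjusted p = 0.00099). A second PSPH probe set was called lower too in the fit of every probe set (log2 -0.37, adjusted p = 0.037). PSPH was not called with the mean of its probe sets (adjusted p = 0.28). That mean includes a dim probe set that was not tested (log2 0.11).

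SHMT2, which turns serine into glycine and a one-carbon unit in mitochondria, rose 1.16-fold (log2 0.21, adjusted p = 0.021). That call was lost without control replicate 3 or versican replicate 1 or 3 (adjusted p 0.065 to 0.080), after median centring (0.062), with no intensity trend (0.051) and without _x_at and _s_at probe sets (0.055). MTHFD2, the next enzyme of the mitochondrial folate route, was not called (log2 -0.11, adjusted p = 0.080), although its groups did not overlap.

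GOT1, the cytosolic aspartate aminotransferase, rose. Its signals were 1028, 933 and 908 on control and 1411, 1274 and 1386 on versican arrays, a clear gap, and the change was 1.41-fold (log2 0.50, SE 0.07, adjusted p = 0.00037). In transsulfuration, CBS, which condenses homocysteine with serine, was 1.70-fold lower (log2 -0.77, SE 0.16, adjusted p = 0.0032). Its 3 tested probe sets disagreed in size, with log2 -0.77, -0.32 and -0.21, and the last was not called. CTH, the next enzyme, had a log2 fold change of -0.24 and missed the threshold (adjusted p = 0.053). It was called without control replicate 2 (log2 -0.29, adjusted p = 0.048).

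Of 7 tested transporters of amino acids 3 fell (42.9%, against 20.6% of all tested genes) and 1 rose, and their median log2 fold change was -0.07. SLC7A5, the light chain of the LAT1 exchanger for large neutral amino acids, had signals of 3524, 3655 and 3613 on control and 2521, 2596 and 2590 on versican arrays. The arrays of each group lay close together and the groups apart, 1.40-fold lower (log2 -0.48, SE 0.05, adjusted p = 2.3e-05). SLC3A2, the heavy chain that brings LAT1 and xCT to the surface, had 1539, 1611 and 1524 on control and 1379, 1349 and 1449 on versican arrays, 1.12-fold lower (log2 -0.16, SE 0.06, adjusted p = 0.046). The SLC3A2 call was lost without control replicate 1, 2 or 3 or versican replicate 1 or 2 (adjusted p 0.069 to 0.14), after median centring (0.26), with no filter (0.069), with no intensity trend (0.060) and with every probe set as its own unit (0.058).

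SLC1A5, the glutamine transporter ASCT2, had signals of 772, 834 and 803 on control and 540, 507 and 549 on versican arrays. The groups did not overlap, and the change was 1.49-fold (log2 -0.58, SE 0.08, adjusted p = 0.00020). SLC7A1, the cationic amino acid transporter CAT1, rose, with signals of 5033, 5513 and 5376 on control and 6170, 6452 and 6105 on versican arrays, 1.18-fold (log2 0.23, SE 0.05, adjusted p = 0.0049). A further SLC7A1 probe set gave log2 0.52 and was called, another gave 0.06 and was not, and the mean of all its probe sets was not called (log2 0.11, adjusted p = 0.49).

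SLC7A11, the cystine transporter subunit xCT, was not called (log2 -0.07, 95% interval -0.18 to 0.05, adjusted p = 0.32). Nor was SLC38A2, the glutamine transporter SNAT2, at log2 -0.04 (95% interval -0.16 to 0.08, adjusted p = 0.61). SLC38A1, the related SNAT1, had log2 0.13 (adjusted p = 0.17), but a further probe set at log2 0.28 was called higher in the fit of every probe set (adjusted p = 0.0025). SLC1A4, a neutral amino acid exchanger, lay below the filter, at a mean of 173 ± 8.8 without and 172 ± 23 with versican (SD, n = 3 each). SLC6A9, a glycine transporter, was dim in both groups, at 35.2 ± 15.4 and 38.9 ± 6.6 (SD, n = 3 each).

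The synthetases fall into 2 structural classes with unrelated catalytic folds. In class I, 3 of 8 tested fell and none rose, a share of 37.5% called against 41.6% of all tested genes. Among all tested genes 20.6% fell and 21% rose. The class I changes were between -0.23 and 0.10 on the log2 scale. EPRS1, which charges both glutamate and proline tRNAs, was counted in class I only, so the counts by class are not a clean structural split. Its signals were 5973, 6634 and 6398 on control and 5080, 5498 and 5661 on versican arrays. EPRS1 was 1.17-fold lower, without overlap (log2 -0.23, SE 0.06, adjusted p = 0.012). It was not called without versican replicate 1 (adjusted p = 0.058) or after median centring (0.12). CARS1, the cysteine enzyme, had 6841, 7501 and 7577 on control and 6602, 6187 and 6501 on versican arrays, without overlap, 1.14-fold lower (log2 -0.18, SE 0.06, adjusted p = 0.023). Its 2 further tested probe sets fell more, at log2 -0.24 and -0.48. The CARS1 call was lost without control replicate 2 or 3 or versican replicate 2 or 3 (adjusted p 0.054 to 0.084), after median centring (0.23), with no intensity trend (0.055) and with the mean of probe sets (0.34).

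WARS1, the tryptophan enzyme, which interferon also induces, had signals of 3943, 3784 and 3485 on control and 3401, 3284 and 3333 on versican arrays, without overlap, 1.12-fold lower (log2 -0.16, SE 0.06, adjusted p = 0.041). It was not called without control replicate 1 or 2 or any 1 versican replicate (adjusted p 0.078 to 0.12), after median centring (0.24), with no filter (0.072), with no intensity trend (0.082) or with every probe set as its own unit (0.052), where its second probe set was called (log2 -0.26, adjusted p = 0.0046). IARS1, the isoleucine enzyme, had 10012, 11017 and 10925 on control and 11727, 11974 and 10602 on versican arrays. These overlapped and were not called (log2 0.10, SE 0.06, adjusted p = 0.22). LARS1, RARS1, VARS1 and YARS1, for leucine, arginine, valine and tyrosine, were not called, with log2 fold changes of -0.03, 0.04, 0.09 and -0.09. Leaving out 1 control array moved some of these: VARS1 was called higher without control replicate 3 (log2 0.29, adjusted p = 0.022), and YARS1 was called lower without control replicate 1 (log2 -0.17, adjusted p = 0.046).

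Of 9 tested class II synthetases, 3 rose (33.3%, against 21% of all tested genes) and 2 fell (22.2%, against 20.6%). FARSB, the beta subunit of the phenylalanine enzyme, rose most, with signals of 1704, 1729 and 1726 on control and 2697, 2503 and 2746 on versican arrays. The groups lay far apart, 1.53-fold (log2 0.62, SE 0.05, adjusted p = 1.3e-05). A dim further probe set gave log2 0.02, and the mean of FARSB probe sets was not called (log2 0.26, adjusted p = 0.10). FARSA, the alpha subunit of the same enzyme, rose 1.20-fold (log2 0.26, adjusted p = 0.046). FARSA was not called without control replicate 1 or 2 or any 1 versican replicate (adjusted p 0.059 to 0.14), with no filter (0.078) or with every probe set as its own unit (0.056), where a second probe set at log2 0.48 was called (0.033).

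HARS1, the histidine enzyme, had signals of 2901, 3138 and 2786 on control and 3921, 3752 and 4374 on versican arrays. All versican arrays were higher, 1.36-fold (log2 0.45, SE 0.07, adjusted p = 0.00055). AARS1, the alanine enzyme, went the other way, with 3907, 4014 and 4359 on control and 3007, 3178 and 3019 on versican arrays. It had the largest decrease of the tested synthetases, 1.33-fold (log2 -0.41, SE 0.06, adjusted p = 0.00024).

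NARS1, the asparagine enzyme, had 7929, 7971 and 7699 on control and 7225, 7409 and 6558 on versican arrays, without overlap, 1.11-fold lower (log2 -0.16, SE 0.06, adjusted p = 0.045). The NARS1 call was lost without any 1 control replicate and without versican replicate 1 or 3 (adjusted p 0.070 to 0.19), after median centring (0.31), with no filter (0.085), with no intensity trend (0.091) and with every probe set as its own unit (0.055). GARS1, the glycine enzyme, was not called (log2 -0.16, adjusted p = 0.093), but was after quantile normalization (0.017) and without control replicate 1 (log2 -0.22, adjusted p = 0.028). KARS1, SARS1 and TARS1, for lysine, serine and threonine, were not called, at log2 -0.01, -0.08 and 0.07.

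The synthetases often named as ATF4 targets were set beside the rest. The first set had 11 tested genes (AARS1, CARS1, EPRS1, GARS1, IARS1, LARS1, NARS1, SARS1, TARS1, WARS1 and YARS1). Of these 5 fell (45.5%, against 20.6% of all tested genes) and none rose (against 21%), and their median log2 fold change was -0.16. Of 6 other cytosolic synthetases (FARSA, FARSB, HARS1, KARS1, RARS1 and VARS1), 3 rose (50%, against 21%) and none fell (against 20.6%), with a median of 0.18. The difference between the sets was not tested, and 4 of the 5 decreases (all but AARS1) were lost under at least 1 alternative. The increases of FARSA and FARSB were also lost under at least 1 alternative, while that of HARS1 held. TGATGNAA was in the window of 7 of 10 genes of the first set that had one, with MARS1 among them, and of 0 of 6 of the second, with QARS1 among them. The first set was listed as known ATF4 targets, so these shares describe the lists and are not independent support. The lists were also chosen with earlier results of these data known.

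**Figure D5:**
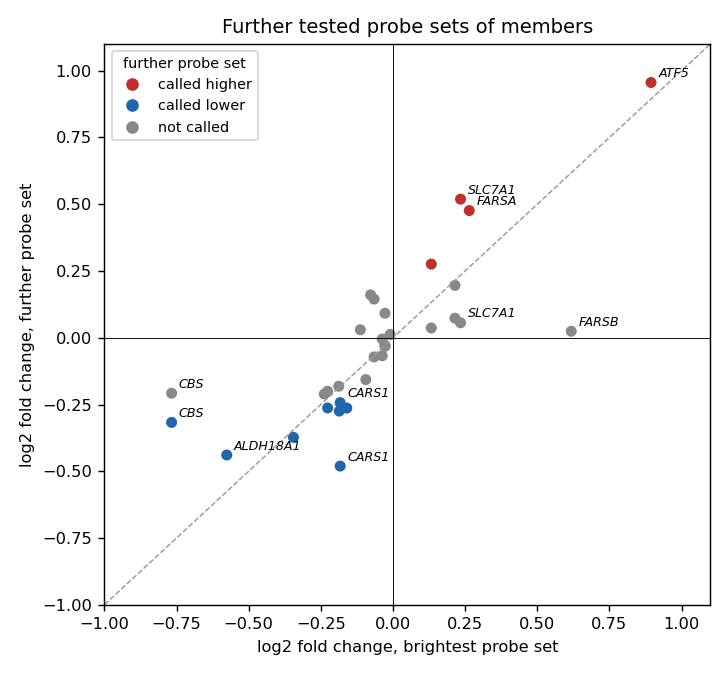
Log2 fold change, versican over control, of each further tested probe set (y axis) against that of the brightest probe set of the same gene (x axis), for 32 further probe sets of tested members, with a dashed line of equality. Colours give the call of the further probe set in the fit of every probe set. CBS and FARSB lie far from the line, while ATF5 and ALDH18A1 lie nearer to it.

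Further probe sets were read as a second measurement of the same RNA. Members had 92 single-symbol probe sets in all. For called members 18 further probe sets were tested, of which 11 were called in the member's direction, 7 were not called and 0 were called in the opposite direction.

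Other genes of the pathway were taken from lists. Among 20 genes of eIF2, its kinases, its phosphatase and its exchange factor eIF2B, 7 rose (35%, against 21% of all tested genes) and 4 fell (20%, against 20.6%), with a median log2 fold change of 0.015. GCN1, the ribosome-bound activator of the amino acid sensor kinase GCN2, had signals of 3660, 3773 and 4033 on control and 3027, 2868 and 2976 on versican arrays, 1.29-fold lower (log2 -0.37, adjusted p = 0.00038). EIF2AK1, the heme-regulated kinase, went from 5152, 5228 and 4846 to 4026, 3886 and 4130 without overlap, 1.26-fold lower (log2 -0.34, adjusted p = 0.00048). EIF2AK4, which is GCN2 itself, was not called (log2 -0.07, adjusted p = 0.49, named after its value was seen). EIF2B1, EIF2B2, EIF2B3 and EIF2B4, subunits of the exchange factor that phosphorylated eIF2 blocks, rose by 0.27, 0.28, 0.26 and 0.20 on the log2 scale, and EIF2B5 was not called (0.09, all named after their values were seen). The remaining called genes of the list are named on the same terms. EIF2S1, PPP1CA and PPP1CC rose (log2 0.43, 0.38 and 0.18), and EIF2AK3 and PPP1R15B fell (log2 -0.26 and -0.29).

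Of 16 tested further partners and targets of ATF4, 10 fell (62.5%, against 20.6% of all tested genes) and 0 rose, and the median log2 fold change was -0.26. DDIT4, an inhibitor of mTORC1, was 2.63-fold lower, from 10324, 11055 and 11443 to 4257, 4101 and 4101 (log2 -1.39, SE 0.05, adjusted p = 1.4e-07). STC2, a secreted stanniocalcin, was 1.75-fold lower, from 4230, 4496 and 4502 to 2461, 2473 and 2617 (log2 -0.80, SE 0.05, adjusted p = 1.7e-06). Several genes of this list also answer to p53, hypoxia or other stress pathways.

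Of 13 tested one-carbon enzymes outside the members, 6 rose (46.2%, against 21% of all tested genes), 1 fell and 6 were not called, and the median log2 fold change was 0.14. GCSH, the H protein of the glycine cleavage system, rose 1.62-fold, from 1862, 1876 and 1818 to 3096, 2901 and 3009 (log2 0.69, adjusted p = 4.2e-06). TYMS, which makes thymidylate for DNA, rose from 4739, 5018 and 4973 to 7640, 7191 and 7619, 1.52-fold (log2 0.61, adjusted p = 8.1e-06). Of 13 further enzymes of amino acid metabolism 6 fell (46.2%, against 20.6%) and 4 rose (30.8%, against 21%), with a median of -0.15. ASS1, which joins citrulline and aspartate on the way to arginine, fell from 3527, 3329 and 3460 to 1166, 1200 and 1117, 2.94-fold (log2 -1.55, SE 0.05, adjusted p = 8.7e-08). ODC1, which makes the polyamine putrescine from ornithine, rose from 3292, 3593 and 3392 to 5719, 5890 and 5808, 1.69-fold (log2 0.76, adjusted p = 2.0e-06). None of these 4 genes had overlapping groups.

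Of 14 tested mitochondrial synthetases, encoded by separate genes, 3 rose and 2 fell, a share of 35.7% called against 41.6% of all tested genes. FARS2, the mitochondrial phenylalanine enzyme, rose from 437, 502 and 482 to 603, 568 and 607, 1.24-fold (log2 0.31, adjusted p = 0.015). HARS2, the mitochondrial histidine enzyme, went from 1986, 2236 and 2129 to 1965, 1744 and 1736, 1.17-fold lower (log2 -0.22, adjusted p = 0.025). Both pairs of groups were apart, HARS2 narrowly. In the complex that holds several cytosolic synthetases together, 2 of 6 tested members fell (33.3%, against 20.6% of all tested genes), EPRS1 and the scaffold AIMP1. AIMP1 went from 3279, 3325 and 3334 to 2810, 2897 and 2783, 1.17-fold lower (log2 -0.23, adjusted p = 0.0031). Of 11 tested further amino acid transporters 3 rose (27.3%, against 21% of all tested genes) and 3 fell (27.3%, against 20.6%). SLC1A3, a glutamate and aspartate transporter, went from 9912, 10784 and 10487 to 7583, 7887 and 7771, 1.34-fold lower (log2 -0.42, adjusted p = 0.00010). SLC36A4, a proton-coupled amino acid transporter family member, rose from 502, 489 and 437 to 618, 661 and 681, 1.36-fold (log2 0.45, adjusted p = 0.0025). Neither had overlapping groups.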

How the data were processed

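The deposited values are linear intensity per probe set, computed by the authors with MAS5 (submitters' processing notes). Version, scaling target and detection calls are not given in the sources used here. Each array had a trimmed mean intensity of 500.1, so scaling had been done. Of 54675 probe sets, 62 were AFFX controls, left out. GEO's platform annotation gave 41091 others 1 symbol and 1801 several, and 11721 are unnamed here. Symbols were updated by gene identifier for 41037.

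Log2(signal + 16) of each gene's brightest probe set was fitted in R 4.3.3 with limma 3.58.1 (lmFit on the group, eBayes with an intensity trend, two-sided, Benjamini-Hochberg over all 9887 genes) and checked on simulated data. The number of arrays limits the precision. Series text calls the samples independent without naming separate cultures or days, so p-values may measure partly technical spread. Genes named with all values are ATF4, DDIT3, ASNS, TRIB3, the 4 members of smallest p in each role group, and the 2 of smallest p in each pathway list. Members and lists were chosen with earlier results of these data known. Alternatives tried were quantile and median normalization, pseudocounts 1 and 64, testing without a filter or in the upper 25% of genes, no trend, the mean of probe sets, no _x_at or _s_at probe sets, the replicate number as a block, leaving out each array, and, chosen after seeing the data, every probe set as its own unit.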

Additional observations from a re-analysis of the deposited data

How the results depend on the processing

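No called member changed direction under any alternative run. VARS1, called higher without control replicate 3, was below 0 under another. Of 27 called members, 13 kept the call under every alternative that tested them and 14 lost it under at least 1. A further 4 uncalled members were called under at least 1. In the upper 25% of genes (4943 tested, 33 members), 1290 genes and 5 members were called higher and 1131 genes and 13 members lower. Fewer genes were tested there. Without _x_at and _s_at probe sets, 28 members were tested, of which 5 were called higher and 11 lower. After median centring 11 members were called lower, and the cause was not tested. Leaving out 1 array gave 6 to 8 members higher and 12 to 18 lower, the 12 without versican replicate 1, and 1680 to 1940 genes higher and 1639 to 1911 lower. With the replicate block, 7 members were called higher and 18 lower. FARSA (adjusted p = 0.057) and SLC3A2 (0.080) were not called with it, and it changed no other member's call. Deviations from the group means correlated at 0.12, -0.02 and -0.09 between same-numbered arrays, so the numbers show no pairing. The median log2 fold change of members lay between -0.13 and -0.08 over all but the every-probe-set alternative. Over all tested genes it lay between -0.001 and 0.032 in the same runs. With no filter on low values all 45 measured members were tested, and 15 were called lower. Near background, signals limit what can be detected. Member counts with median centring, the block, no filter and no _x_at or _s_at probe sets stand without the matching shares of all tested genes. They are therefore not read as results about the members.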

Other observations

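The TGATGNAA letters were also counted in tested genes outside the member list. Of 202 such genes with the motif in a start window, 58 (28.7%) were called lower and 41 (20.3%) higher. Of 8028 genes with a window and no motif, 1591 (19.8%) were called lower and 1717 (21.4%) higher. The median log2 fold changes were -0.006 and 0.01. The genes with the motif include further known ATF4 targets, since 4 of 14 genes of that list with a window held it (28.6%). The difference was not tested.

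The following genes handle arginine, ornithine or proline and were picked from several lists after their values were seen, so they are given as values only. ASS1 was 2.94-fold lower, while ASL, which follows it in the making of arginine, rose by 0.44 on the log2 scale (limma adjusted p = 0.0012). OAT, which links ornithine with the proline pathway, fell by 0.15 (adjusted p = 0.017), ALDH18A1 and PYCR1 of proline synthesis fell by 0.58 and 0.59, and ODC1 and the arginine importer SLC7A1 rose by 0.76 and 0.23.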
